A study of Mus musculus with 67 samples.

Results

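The elements described here were 583 strong, distal stretches of open chromatin whose accessibility hardly moved while mouse embryonic stem (ES) cells became ventral spinal cord progenitors. They were chosen by their measured values among 111638 accessible elements. Each lay more than 10000 bp from the transcription start site (TSS) listed for it in the deposited annotation. Each had a mean accessibility of at least 8.5 over 67 samples on the variance-stabilized (VST) scale, a log2-like scale of normalized read counts. Each had a standard deviation (SD) below 0.25 over the means of 13 day-by-cell-type groups. The members made up 0.522% of all elements and 19.1% of the 3048 strong distal ones. Level and steadiness are thus how they were picked and are given only as a description.

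The samples came from HM1 mouse ES cells, a laboratory line, differentiated through neuromesodermal progenitors (NMP, day 3, 0 nM SAG, 3 samples) into neural progenitors (NPs) in retinoic acid with SAG, a Smoothened agonist that stands in for Sonic hedgehog. On days 4, 5 and 6 the cells were fixed, stained for transcription factors and sorted for 4 NP types, each from a pair of SAG concentrations: p0-1 from 0 and 10 nM, p2 from 10 and 100 nM, and pMN and p3 from 100 and 500 nM. Accessibility was then read by ATAC-seq, which inserts sequencing adapters into open DNA. There were 25 conditions, 17 with 3 replicates and 8 with 2, each replicate an independent differentiation, and the sorted populations are mixtures in which the share of cells with an open element and its openness per cell cannot be told apart.

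Most elements that respond to patterning signals in the neural tube are distal enhancers bound by cell-type transcription factors such as the SOX and homeodomain families. Elements found accessible across cell types are, as background, often the promoters of housekeeping genes, many of which lie in CpG islands, stretches rich in the CG dinucleotide, and are bound by KLF/SP, ETS, NFY and NRF1 factors. Sites of CTCF, the protein that with cohesin anchors chromatin loops, are the other well-known class of widely shared distal open sites.

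A pair of stretches of reference sequence show the CG-rich kind of member and 2 show the opposite kind, and they are printed because this contrast runs through the results. All are the central 300 bp of an element, on the plus strand of GRCm38 (mm10), with every CG dinucleotide in capitals, and all avoid annotated exons. The first member lies at chr3:148988238-148988537, in an element classed as intergenic that holds a start site of the adhesion receptor gene Adgrl2, and has 27 CG dinucleotides. The second lies at chr7:73617910-73618209, in an intergenic element near 1810026B05Rik that is 8012 bp from any annotated start site, and has 21.
Adgrl2: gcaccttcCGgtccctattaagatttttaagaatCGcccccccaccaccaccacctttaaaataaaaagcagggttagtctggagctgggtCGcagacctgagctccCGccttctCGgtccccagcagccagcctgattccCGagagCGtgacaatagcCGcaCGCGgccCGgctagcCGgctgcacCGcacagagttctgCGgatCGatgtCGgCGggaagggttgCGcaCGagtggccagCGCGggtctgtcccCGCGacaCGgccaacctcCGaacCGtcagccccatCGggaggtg
1810026B05Rik: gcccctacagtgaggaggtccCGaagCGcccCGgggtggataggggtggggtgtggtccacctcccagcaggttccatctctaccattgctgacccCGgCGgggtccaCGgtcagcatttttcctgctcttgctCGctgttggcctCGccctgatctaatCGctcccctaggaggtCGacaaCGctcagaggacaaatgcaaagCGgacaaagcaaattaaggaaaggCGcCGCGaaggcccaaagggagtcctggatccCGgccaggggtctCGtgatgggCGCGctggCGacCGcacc
The other kind is represented by the strong distal elements of highest SD, one in an intron near Gm29681 at chr5:131646022-131646321 with 8 CG dinucleotides, and one in an intron near Adora2b at chr11:62130178-62130477 with 3.
Gm29681: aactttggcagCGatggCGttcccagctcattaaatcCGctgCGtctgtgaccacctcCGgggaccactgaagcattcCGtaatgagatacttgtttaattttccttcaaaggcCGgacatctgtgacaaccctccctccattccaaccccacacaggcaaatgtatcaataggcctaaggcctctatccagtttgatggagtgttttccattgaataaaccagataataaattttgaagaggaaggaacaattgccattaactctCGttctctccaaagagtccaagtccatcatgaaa
Adora2b: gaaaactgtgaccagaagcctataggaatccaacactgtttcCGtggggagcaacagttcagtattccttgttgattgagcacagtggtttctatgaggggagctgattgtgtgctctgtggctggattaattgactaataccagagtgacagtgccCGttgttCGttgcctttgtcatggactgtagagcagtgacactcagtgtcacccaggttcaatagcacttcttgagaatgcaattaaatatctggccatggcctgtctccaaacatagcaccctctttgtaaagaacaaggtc
These 4 windows were picked after the values had been seen, among windows that avoid exons. The members were picked by mean level only from those with a CpG island in the central 500 bp and no CTCF match. Their CG richness was thus part of the choice, and 50.3% of all members had such a central island. The variable elements were picked by SD with no filter on composition.

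Recovered reads in elements ran from 9298160 to 29985325 per sample. The labelled cell types were checked against summed normalized counts over all elements annotated to each marker gene. At day 5, Olig2, the pMN determinant, was at 8652 ± 679 (SD, n = 5) in pMN, and its next highest cell type was p2 at 4933 ± 460 (SD, n = 6). Foxa2, a floor plate and p3 factor, was at 10471 ± 2065 (SD, n = 5) in p3 and between 4143 and 4684 in the other NPs. Dbx1, a p0-1 factor, was at 5291 ± 264 (SD, n = 6) in p0-1 and 2452 ± 264 (SD, n = 6) in p2, and Nkx6-1, absent from the p0-1 gate, at 6126 ± 1626 and 13251 ± 793. Pax6 (8550 and 8697) and Irx3 (13800 and 12918) did not separate p0-1 from p2. Of the NMP factors, Cdx2 was at 5425 ± 540 (SD, n = 3) in NMP at day 3 against 1322 ± 469 (SD, n = 6) in p0-1 at day 4, a comparison in which day and cell type cannot be told apart, and Tbx6 did not mark NMP (778 against 776 in day 5 p0-1). No element was annotated to Nkx2-2, so this p3 marker could not be read. Nkx2-9, also read for p3, set this type apart from pMN less clearly than Foxa2 did. Its day 5 sum averaged 3940 for p3 (SD 372) against 3022 for pMN (SD 617). By day 6 the order had turned, with pMN at 3007 (SD 415) and p3 at 2927 (SD 423).

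Mean VST of the members ran from 8.5 to 12.1 with a median of 9.62, and their SD from 0.0646 to 0.25 with a median of 0.181. The range from the lowest to the highest of the 13 group means had a median of 0.610 on the VST scale and stayed under 1 for all 583 members. In strong distal elements with an SD of 0.25 or more, called strong variable distal elements from here on (n = 2465), this range had a median of 3.54. Members held between 2.65% and 3.36% of the reads of a sample. At the threshold, the 3 members just inside were near Gm30570, Utp3 and Abr and the 3 elements just outside were near 1700099I09Rik, Mir6935 and Mdh2. Their SDs all lay between 0.25 and 0.251, so the boundary separates near neighbours.

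**Figure D1:**
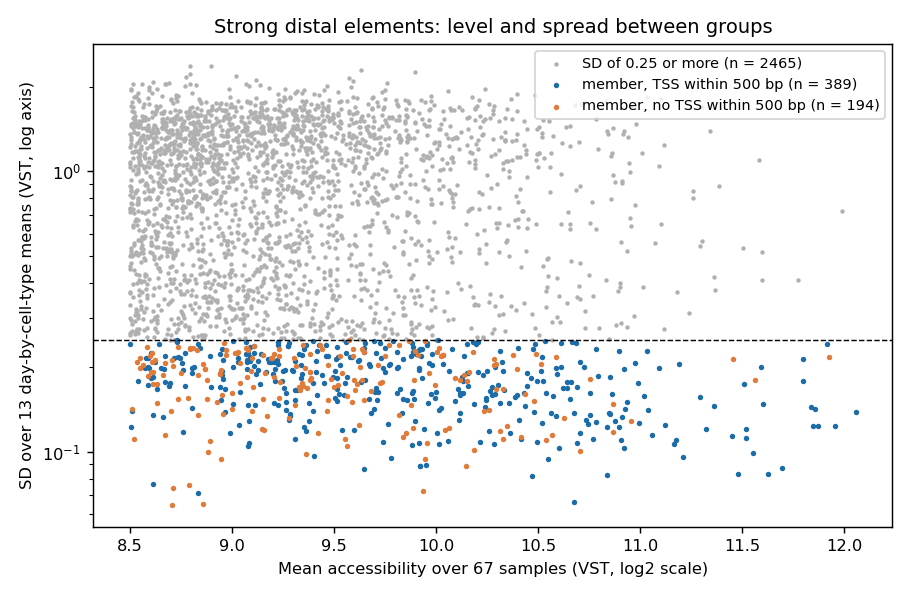
Each point is a strong distal element, with its mean accessibility over 67 samples (VST) on the x axis and its SD over 13 day-by-cell-type means on a log y axis. Members lie under the dashed line at 0.25, with 389 within 500 bp of an annotated TSS in blue and 194 without one in orange, and the strongest members reach a mean of 12.1.

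The strongest member lay in an intron of Ptprs, a receptor tyrosine phosphatase gene (chr17:56461004-56463118). Its normalized count was 3538 in the lowest, 4165 in the median and 5717 in the highest of the 67 samples. Its group means ran from 3673 ± 158 (SD, n = 6) in day 4 p2 to 5199 ± 307 (SD, n = 5) in day 6 p0-1. The member in an intron of Cic, a transcriptional repressor gene (chr7:25267256-25268630), ran from 3272 through a median of 3904 to 4768. Both elements also hold an annotated start site of the same gene, Ptprs or Cic, that is not the one to which the deposited distance was measured.

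The member with the lowest SD, in an intron of the kinase gene Map4k4 (chr1:39935041-39936830, SD 0.0646), had 322 normalized counts in the lowest sample, 407 in the median and 497 in the highest. Its group means lay between 374 ± 35.2 (SD, n = 6) in day 6 p2 and 439 ± 43.6 (SD, n = 6) in day 4 pMN and the samples of these outermost groups overlapped. The next lowest SDs belonged to elements near Dnmt3aos, Tnfaip8, Epcam, which encodes an epithelial adhesion molecule, and Slc38a2, an amino acid transporter gene, all between 0.0653 and 0.0723. By contrast the variable element near Gm29681 had a mean of 6.96 normalized counts ± 3.84 (SD, n = 3) in NMP and of 3336 ± 644 (SD, n = 5) in day 6 p0-1.

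**Figure D2:**
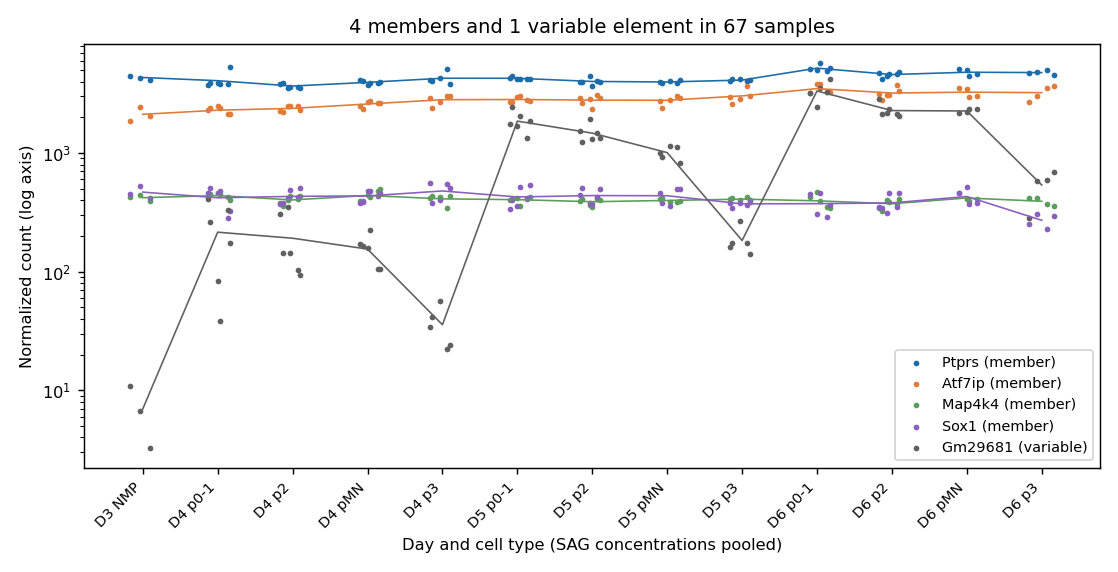
Normalized counts on a log axis for 4 members and the strong variable distal element of highest SD, one point per sample and a line through the means of the 13 day-by-cell-type groups. Ptprs stays between 3538 and 5717 and Map4k4 between 322 and 497, while the element near Gm29681 climbs from 6.96 in NMP to 3336 in day 6 p0-1.

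Although all members lay over 10000 bp from the start site given in the deposited annotation, most lay at another annotated start site. Of the 583, 389 (66.7%, 95% Wilson interval 62.8 to 70.4%) lay within 500 bp of a TSS of any transcript in GENCODE vM21 or RefSeq for GRCm38, and 379 held one inside. The share was 21.5% in strong variable distal elements and 8.51% in all 81917 distal elements. The nearest gene of the deposited annotation itself had such a start site at 194 members. The deposited annotation put 84 members in its promoter-TSS class despite the distance, all of them within 500 bp of a TSS, and it put 275 in intergenic DNA, 152 in introns, 64 in exons and 8 at transcription ends. Intervals here and below cover counting error only.

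The same contrast held for sequence composition, which the rule did not use. A CpG island window, meaning 500 bp with at least 55% GC and a CpG observed/expected ratio of at least 0.65, lay in 400 members (68.6%, 95% Wilson interval 64.7 to 72.2%). It lay in 12.1% of strong variable distal elements, 2.14% of all distal elements and 94.6% of the 4618 promoter-TSS elements that met the same level and SD thresholds. The median CpG observed/expected ratio over the element was 0.628 in members, 0.242 in strong variable distal elements and 0.734 in those promoters. Median GC was 56.9%, 48.8% and 59.6% in the same order. Widths were close, with a median of 1479 bp in members and 1465 bp in strong variable distal elements.

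Start sites and islands overlapped in part. Both were present at 314 members, a start site alone at 75, an island window alone at 86, and neither at 108 (18.5%). In strong variable distal elements the share with neither was 74.8%. Within the 194 members away from any annotated TSS, 86 (44.3%) still had an island window. The member of highest mean in this last class, intergenic near Atf7ip (chr6:136468393-136471218), ran from 1867 to 3828 normalized counts with a median of 2817. Its group means were lowest in NMP at 2122 ± 301 (SD, n = 3) and highest in day 6 p0-1 at 3493 ± 307 (SD, n = 5), and these samples did not overlap.

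The gap in shares was also present within classes of like level and width. In the lowest level class, mean VST of 8.5 to 9, 50.0% of 110 members had a TSS within 500 bp, against 19.6% of 1016 strong variable distal elements. Above a mean of 10 the shares were 78.2% of 197 and 23.5% of 310. Among elements under 1000 bp wide, 45.7% of 92 members and 2.61% of 421 strong variable distal elements had an island window.

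Across all strong distal elements the shares changed gradually with SD and not as a step at the threshold. A TSS lay within 500 bp of 68.0% of 169 elements with an SD below 0.15, of 57.6% of 170 just above the threshold (SD 0.25 to 0.3), and of 6.68% of 404 with an SD of 1.5 or more. For the CpG island window these shares were 72.2%, 60.0% and 0%. The elements just outside the rule thus resembled the members more than they resembled the most variable elements.

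**Figure D3:**
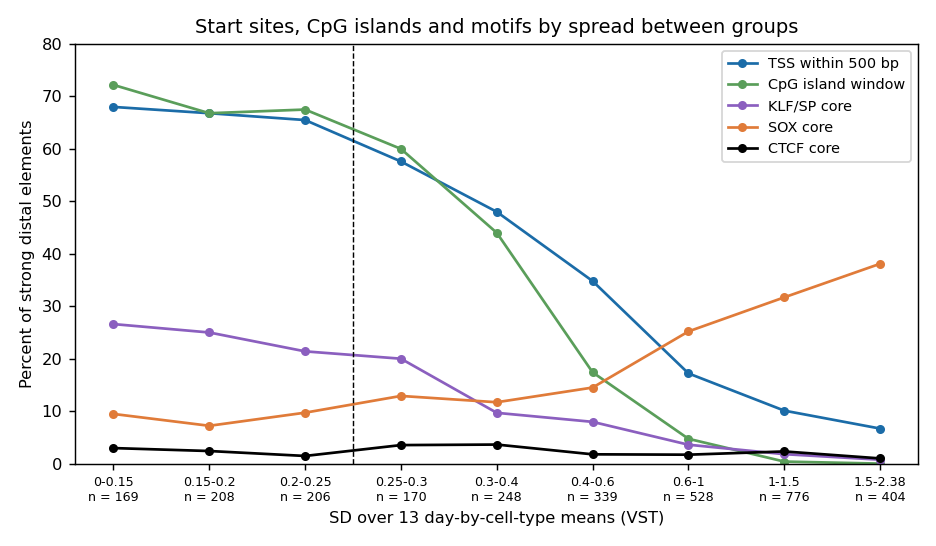
Percent of strong distal elements (y axis) with a TSS within 500 bp, a CpG island window, or a KLF/SP, SOX or CTCF core in the central 300 bp, in bins of the SD over 13 group means (x axis, n per bin shown, members left of the dashed line). TSS and island shares fall from 68.0% and 72.2% to 6.68% and 0%, the SOX share rises from 9.47% to 38.1%, and the CTCF share stays under 4% in every bin.

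What the nearby start sites belonged to was read from GENCODE, which placed 351 members within 500 bp of a TSS. The closest was that of a protein-coding gene at 266 members, of a long noncoding RNA at 51, of a small nuclear or nucleolar RNA (snRNA, snoRNA) at 18, and of another gene type at 16. The snRNA and snoRNA members, whose products act in splicing and ribosomal RNA processing, were few but strong. Their median mean VST was 11, against 9.74 for protein-coding starts, and their median normalized count per kb of element was 1250 against 547. They made up 6 of the 20 members of highest mean, and 7 such elements were found among the 2465 strong variable distal ones.

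A run of 6 members on chromosome 11, between 87422553 and 87472461 near the testis gene Tex14, lay at small RNA genes. The element at Rnu1a1, a U1 snRNA gene, had 1321 normalized counts in its lowest sample, 3570 in the median and 5093 in the highest. The 4 elements at Rnu3b1, Rnu3b3, Rnu3b4 and Rnu3b2, which encode the U3 snoRNA, had medians of 3132, 2805, 2545 and 1617 normalized counts. Their SDs over the 13 groups were 0.0830, 0.113, 0.121 and 0.107, while the SD between replicates of a condition was 0.262, 0.258, 0.286 and 0.261. These genes belong to multigene families, and reads from like copies could be assigned to either, so the level at each is uncertain. The snRNA and snoRNA members as a class had a median within-condition SD of 0.259, against 0.164 for members at protein-coding starts.

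A second small class was of sequence with another copy in the genome. At 17 members (2.92%) a stretch of at least 50% of the element matched elsewhere on the assembled chromosomes at 95% identity or more, against 14 strong variable distal elements (0.568%). None of the members matched the mitochondrial genome. The narrow member classed as exonic near Limd1, with the closest GENCODE start site that of Lars2 (chr9:123461798-123462187, 390 bp) had the highest normalized count per kb of all members, 10162, with counts from 2786 through a median of 3732 to 6823 and 1 other copy at 98.3% identity. The intergenic member near Pex2 (chr3:5860341-5860677, 337 bp) had 14 other copies, 9112 normalized counts per kb, and counts from 2205 through 2923 to 4901. Levels at such elements are uncertain, since reads could belong to another copy.

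The CTCF core, a 12-base pattern of CCA, any 2 bases, AG, any 2 bases and GGC, was searched on both strands in the central 300 bp. It was present in 13 members (2.23%, 95% Wilson interval 1.31 to 3.78%). Its share was 2.11% in strong variable distal elements, 3.93% in all distal elements and 4.13% in all elements. Per length of whole element there were 117 cores per Mb in members, 87.4 in strong variable distal elements, 117 in all distal elements and 122 in all elements. In the central window members thus carried the core less often than distal elements at large, while per length the density was the same. Over the whole element, which is wider in members (median 1479 bp against 801 bp), 16.8% of members and 10.3% of all distal elements held a core. Density was 92.6 cores per Mb in members at a TSS and 169 in those away from one. A match is a description of letters only, and its absence says nothing about binding.

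The member of highest mean among these 13, in an exon near Tnfaip8, lies on a chromosome left out of the sequences shown. Of the next 5 by mean, near Hpcal1, Cd83, Zfp287, Mir6935 and Bsn, 2 carried the core outside exons. These are shown on the strand of the core, with the core in capitals and 20 bp on either side. The first is at chr11:120311091-120311142, minus strand, intergenic, 57 bp from the centre of the element. The second is at chr9:108201388-108201439, minus strand, intergenic near the presynaptic gene Bsn, 84.5 bp from the centre.
Mir6935: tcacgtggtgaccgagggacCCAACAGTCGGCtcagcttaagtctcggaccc
Bsn: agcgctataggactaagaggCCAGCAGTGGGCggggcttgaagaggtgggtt
The Cic member, among the 3 strongest without a core, is shown for comparison by its central 300 bp at chr7:25267794-25268093, plus strand, intronic, with its 12 CG dinucleotides in capitals.
Cic: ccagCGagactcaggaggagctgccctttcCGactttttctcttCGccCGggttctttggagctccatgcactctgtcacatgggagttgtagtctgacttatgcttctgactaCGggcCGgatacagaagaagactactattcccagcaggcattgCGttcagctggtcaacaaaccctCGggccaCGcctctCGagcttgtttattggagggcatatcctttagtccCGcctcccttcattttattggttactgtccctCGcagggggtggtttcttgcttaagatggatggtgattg

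Other motif cores in the central 300 bp, on either strand, separated members from strong variable distal elements in both directions. The KLF/SP core GGGCGGGG was present in 24.2% of members and 4.91% of strong variable distal elements, with 4.99% of all elements. The ETS core CCGGAAG was in 5.66% against 2.27% (all elements 2.79%), the NFY core AGCCAATC in 4.80% against 1.70% (1.44%), and the E-box of USF and MYC factors, CACGTG, in 7.89% against 3.89% (4.17%). The NRF1 core CGCATGCG was in 7 members and in no strong variable distal element. This core itself contains CG dinucleotides, which are rarer in strong variable distal elements. It was not compared in windows of like CG content. In the other direction, the SOX core CATTGT was in 8.75% of members against 25.7% (all elements 21.1%), the TEAD core GGAATG in 9.61% against 19.6% (20.3%), the homeodomain core TAATTA in 2.74% against 8.48% (7.85%), and the AP-1 core TGANTCA in 3.60% against 8.11% (9.72%). The cores of REST, YY1, RFX, OCT, FOX and GLI factors and the cyclic AMP response element were in 0.172% to 2.74% of members, and the NFI palindrome was in none.

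Base composition moved with these shares, and its part was read from windows of like GC. Among windows of 45 to 55% GC, the SOX core was in 8.63% of 139 members and 28.0% of 1252 strong variable distal elements, and the TEAD core in 10.1% and 23.0%. In the same windows the KLF/SP core was in 5.04% and 2.00%. Among windows of 65% GC or more, the KLF/SP core was in 42.5% of 240 members and 31.7% of 161 strong variable distal elements, and the SOX core in 5.83% and 9.32%. The SOX and TEAD cores were less frequent in members in all 4 GC classes. The KLF/SP core was more frequent in members in 3 of them and in none of 40 members against 0.157% of 636 elements below 45% GC. The ETS contrast turned at high GC, at 4.58% and 8.07% above 65%. The homeodomain and AP-1 contrasts shrank in windows of 45 to 55% GC, to 5.76% and 6.79% and to 7.19% and 8.55%. For the homeodomain core the shares were 2.44% and 3.12% at 55 to 65% GC, but 10.0% and 16.7% below 45%. At 65% or more they were 0% and 3.11%. For the AP-1 core they were 2.44% and 6.49% at 55 to 65% GC and nearly equal at 65% or more.

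Members with and without a nearby TSS differed in some cores, and these differences were not tested. The KLF/SP core was in 27.2% of the 389 members at a TSS and 18.0% of the 194 others, and the YY1 core in 2.57% and 0.515%. The SOX core was in 7.46% and 11.3%, the homeodomain core in 1.54% and 5.15%, the OCT core in 1.03% and 3.61%, and the RFX motif in 0.771% and 3.09%. The ETS core was in 5.91% and 5.15% of these classes, against 19.3% of the strong invariant promoter-TSS elements.

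**Figure D4:**
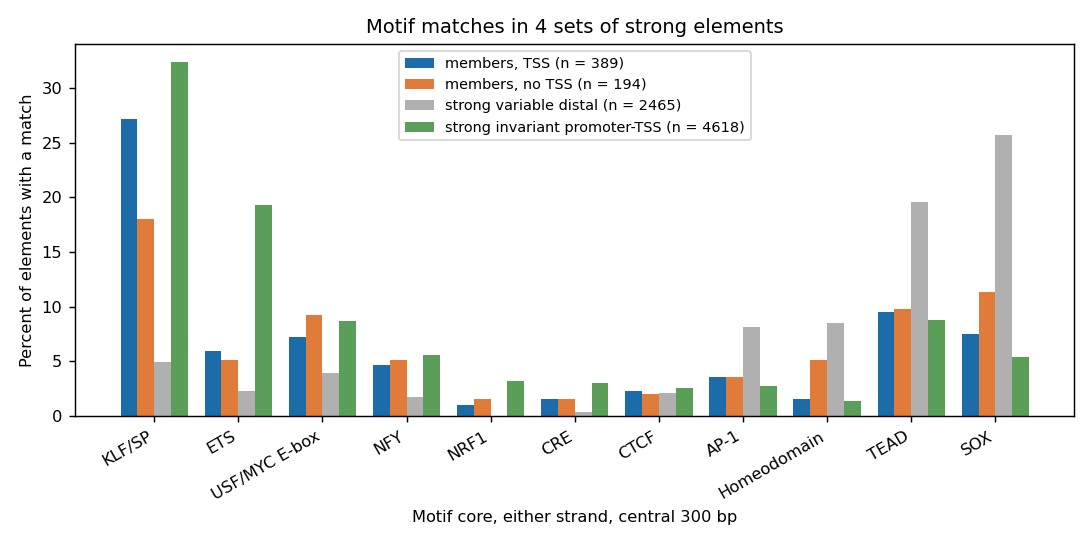
Percent of elements (y axis, from 0) with a match to each motif core in the central 300 bp, for members at a TSS, members away from a TSS, strong variable distal elements and strong invariant promoter-TSS elements. KLF/SP matches run from 4.91% in variable elements to 32.4% in promoters with the members between, and SOX matches are highest, at 25.7%, in variable elements.

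The small movements that the members did make were shared among them. The median deviation of the group means from the mean of all 13 was 0.205 on the VST scale in NMP, -0.192 in day 4 p2, -0.161 in day 4 pMN and 0.172 in day 6 p0-1. By sample, the median deviation ran from 0.122 to 0.292 in NMP and from 0.0796 to 0.321 in day 6 p0-1. It ran from -0.302 to -0.0948 in day 4 p2 and from -0.250 to -0.0561 in day 4 pMN. In day 4 p0-1 it ran from -0.318 to 0.356, a wider spread than that of the group medians. NMP was the highest group for 272 members and day 6 p0-1 for 146, while day 4 p2 was the lowest for 217. The strong invariant promoter-TSS elements moved in the same direction at these points, with medians of 0.166, -0.210, -0.181 and 0.193. The strong variable distal elements had a median of -2.50 in NMP, where 1753 of 2465 were at their lowest. Since all samples share 1 normalization, a common shift of steady elements and a shift of the scaling cannot be told apart.

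**Figure D5:**
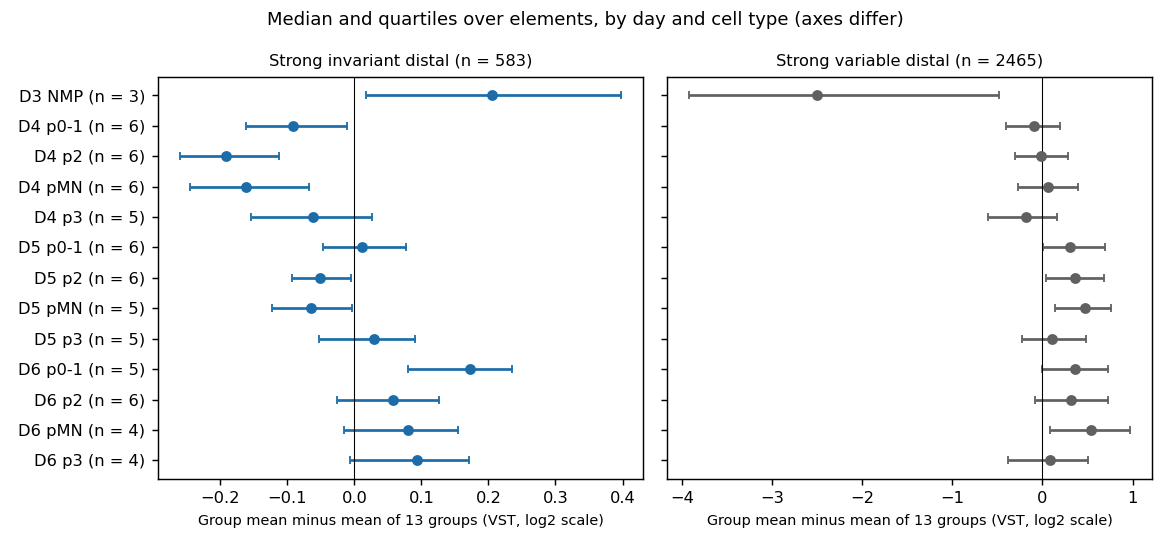
Median (point) and quartiles (bars) over elements of the group mean minus the mean of all 13 groups, in VST units, for the 583 members on the left and the 2465 strong variable distal elements on the right, with different x axes. Members move between -0.192 in day 4 p2 and 0.205 in NMP, whereas variable elements sit at -2.50 in NMP.

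SAG concentration was pooled in the rule, so differences between the concentrations within a cell type and day were not used directly to choose the members. The 13 groups come from different SAG concentrations, however, so elements that follow the dose across cell types could fail the rule. Small SAG differences and few calls in members may thus follow in part from the rule. Their largest mean difference over the 12 comparisons had a median of 0.246 on the VST scale, against 0.482 in strong variable distal elements and 0.230 in strong invariant promoter-TSS elements. All 583 members passed the filter on low counts in each of the 12 comparisons. The 49264 elements passed it in at least 1 comparison, and 29283 to 33263 elements were tested in any 1 of them. Many of these elements thus had fewer chances of a call than the members. By limma on VST values, none was called at an adjusted p under 0.01 with a change above 2-fold in any of the 12 comparisons, where 0.00203% of 49264 elements (1 element) were called. At an unadjusted limma p under 0.05 in at least 1 comparison there were 99 of 583 members, beside 13753 of 49264 elements. There were 1554 of 2465 strong variable distal elements and 343 of 4618 strong invariant promoter-TSS elements. With 12 comparisons an element can reach this p without any difference, so these counts do not rank the sets by response to SAG. With limma voom none of all elements was called. With so few calls over all elements, the absence of called members says little about them.

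Replicate numbers paired the samples in all 6 comparisons that had 3 pairs (the check is given with the methods). The same comparisons were therefore also fitted with replicate number as a blocking term. With the 2-fold threshold still no member was called, where 5.97% of elements were (123 of 2465 strong variable distal elements, 4.99%). Without the fold threshold, an alternative chosen after seeing the data, 52 members (8.92%) were called in at least 1 comparison. The background was 24.7% of the elements tested in at least 1. The shares were 68.6% of strong variable distal elements and 3.10% of strong invariant promoter-TSS elements. The called changes were small, with a median size of 0.314 and a largest of 0.834 on the VST scale. The comparison of 0 and 10 nM in day 6 p0-1 gave 35 of the 65 calls, 22 of them higher at 10 nM, where 24.3% of 31156 elements were called. It has 2 pairs, so whether numbers pair its samples was not settled by correlation.

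The elements near Pisd-ps1 and Gm30570 illustrate these calls, both by limma with the replicate block and no fold threshold. Without the block no member was called, with or without a fold threshold. The largest call was a 7306 bp element near Pisd-ps1 (chr11:3131197-3138502). In day 5 p3 it was at 1947 normalized counts at 100 nM and 1147 at 500 nM (log2 difference -0.834, limma adjusted p = 0.00166). In that comparison 0.0257% of 31179 elements were called. The element near Gm30570 (chr10:4105669-4108562), one of those at the edge of the rule, was called in day 6 p0-1. It was at 1151 normalized counts at 0 nM and 627 at 10 nM (log2 difference -0.787, limma adjusted p = 3.15e-18). Both comparisons have 2 pairs, with replicate 1 present at a single concentration. Such a fit leaves little residual spread for an element, so these p-values lean on variance shared over elements.

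The elements near genes of the patterning network were counted in 9 gene lists, beside the 19.1% of all strong distal elements that were members. Most lists held few strong distal elements, and no list was tested against that share. Of the lists, dorsoventral patterning factors had 1 member among 31 strong distal elements and the Hedgehog pathway 2 of 16. Architectural proteins had 1 of 2, clustered protocadherins 1 of 1 and olfactory receptors 5 of 5. The olfactory receptor members include neighbouring elements near Olfr1423, at chr19:12004595-12008000 and chr19:12009173-12013490. Hox clusters (4 strong distal elements) and imprinted genes (7) had none, and posterior and pluripotency factors had no strong distal element. The patterning member lay 43754 bp from the TSS of Sox1, a neural progenitor factor (chr8:12438620-12439926), with counts from 231 through a median of 408 to 563. Its group mean was lowest in day 6 p3 at 271 ± 35.7 (SD, n = 4), and it was at 297 normalized counts at 0 nM and 426 at 10 nM in day 6 p0-1 (log2 difference 0.447). This passed only with the replicate block and no fold threshold (limma, adjusted p = 4.22e-04). The comparison has 2 pairs, 24.3% of elements were called in it, and its p-values lean on variance shared over elements.

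The Hedgehog members lay at upstream start sites of Cdon, a Sonic hedgehog co-receptor gene (chr9:35420983-35422772), and of Gpr161, a negative regulator of the pathway (chr1:165281257-165283527). At the Gpr161 element the start sites are from RefSeq alone and belong to Gpr161 and Tiprl, and the closest GENCODE start site is 12262 bp away. The Cdon element ran from 784 through a median of 1235 to 1949 normalized counts and was highest in day 5 p0-1, at 1749 ± 109 (SD, n = 6). The Gpr161 element ran from 358 through 595 to 975 and was highest in day 6 p0-1, at 794 ± 27.7 (SD, n = 5). The architectural protein member, intergenic near Yy1 and at a RefSeq start site, ran from 798 through 946 to 1332. Of the olfactory receptor members, the strongest lay near Olfr1423 (chr19:12009173-12013490) and ran from 1503 through 1950 to 2498, 604 bp from the nearest annotated start site.

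Differences between replicate numbers, which are independent differentiations and were averaged by the rule, gave the last test. Replicate 1 is absent from day 6 pMN and p3, so such differences entered the group means in part. Small values in members thus follow in part from the rule. For members the largest difference between replicate numbers had a median of 0.151 on the VST scale, against 0.231 in strong variable distal elements, 0.131 in strong invariant promoter-TSS elements and 0.209 in all 31744 elements tested. None was called with a difference above 1, where 0.211% of elements were. Without that threshold 302 members (51.8%) were called, near the background of 55.2%. Small differences between differentiations were thus found at members at a share close to that of all elements. At 241 members the SD between replicates of a condition exceeded the SD over the 13 groups, as it did at 37 of 2465 strong variable distal elements, which follows in part from the choice of low SD.

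The members with the largest difference between replicate numbers lay near Gm8179 (0.671), Slfn14 (0.620), G530011O06Rik on chromosome Y (0.594), Ddx19a (0.530) and Zfp958 (0.507), each at an adjusted p of 2.90e-09 or smaller by limma. All 5 were lowest in replicate 3. The element near Gm8179 (chr8:32292692-32293789) ran from 302 through 489 to 782 normalized counts over the 67 samples, and the one near Slfn14 (chr11:83270807-83272998), at the snRNA gene Gm23444, from 878 through 1405 to 2623.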

How the data were processed

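ATAC-seq on fixed, sorted cells was measured in 67 samples. The authors aligned reads to mm10 with nf-core/atacseq, called peaks with MACS, counted reads over consensus elements and deposited log2-scale VST values from DESeq2, with an annotation of each element (position and distance in bp to a TSS) deposited as other values. No reads were reprocessed. VST values were inverted to normalized counts, which gave whole reads in 100% of values below 1000 reads (tolerance 1e-06) at depths from 9298160 to 29985325 reads in elements. Size factors ran from 0.495 to 1.50. The count says how many reads lie in an element and not how many cells.

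Samples were grouped by the labels. The members, gene lists and motifs were chosen with earlier results of these data known. Elements were named by fixed rules: the 5 of highest mean, the 5 of lowest SD, 3 on each side of the SD threshold, up to 3 per gene list, those with and without a CTCF core, and the 5 with the largest difference between replicate numbers. The rule for repeat families could not be applied, because the annotation gives none, and the CpG island class was computed here. The element near Pisd-ps1, the Tex14 run, the copied elements and those away from a TSS were named after their values were seen.

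Sequence features came from GRCm38 (no element ran past a chromosome end), start sites from GENCODE vM21 and RefSeq, and copies from BLAST+. Tests used limma in R with a mean-variance trend, were two-sided and were Benjamini-Hochberg adjusted over elements with a mean above 100 normalized counts. SAG concentrations were compared in 12 cell type and day pairs, and replicate number in a moderated F test with condition as covariate. Same-numbered samples deviated together, with a median r of 0.74 over 30 pairs, and r exceeded 0.1 in every pair of the 6 comparisons with 3 pairs. The other 6 have 2 pairs. The replicate numbers in titles and descriptions differ in 15 samples, and title numbers were used. Tested on simulated data for 0 and 10 nM in day 5 p0-1 (31401 elements), the fit without block recovered 71 of 100 changes of 2.5-fold and 91 of 100 of 4-fold. Alternatives were other scalings, thresholds, windows, replicate blocks and left-out replicates. Versions were R 4.3.3, limma 3.58.1, Python 3.11.15 and BLAST+ 2.17.0.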

Additional observations from a re-analysis of the deposited data

How the results depend on the processing

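The number of members was 377 with an SD below 0.2 and 936 without the NMP group, which was chosen after seeing the data, as were the TSS and island alternatives and the blocked fits without fold threshold. It was 449 to 638 when a replicate number was left out. With centred samples 434 of the 460 elements chosen were members, so 74.4% of the members were kept. Without replicate 3, 433 of 449 were members, and 74.3% of the members were kept. The CTCF core was in 16.8% of members over the whole element, 0.686% in the central 150 bp and 0.343% with a stricter core. The share within 500 bp of a TSS was 60.2% with GENCODE alone, 58.5% with RefSeq alone, 59.3% from the centre, 61.4% for a mean VST of at least 8 and 57.1% without NMP. The island share was 50.3% in the central 500 bp, 61.3% for a mean VST of at least 8 and 57.6% without NMP, and 63.3% to 71.0% when a replicate number was left out.

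Elements called between SAG concentrations numbered 2941 with the replicate block, 2441 with a block on the numbers in the descriptions, 12163 with the block and no fold threshold, 12359 with that and centred samples, 26 with centred samples alone, 3 without a filter on the mean, and 0 with voom or without a variance trend. They numbered 0 to 2491 when a replicate number was left out (236 without replicate 1, 0 without replicate 2, 2491 without replicate 3). Members called were 52 with the block and no fold threshold and 46 with centring as well, and the block changed no other call of a member. Elements called between replicate numbers were 41 with centred samples, 17507 (302 members) without a fold threshold, 121 without a filter on the mean, and 2 to 58 when a replicate number was left out. The cause of these shifts was not tested. Bulk counts limit each element to its average over a sorted population, and leaving out replicates leaves few samples per concentration.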
